A study of Rattus norvegicus with 24 samples.

Results

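The genes described are 40 genes of DNA replication and mitosis, taken from a list of gene symbols and followed on arrays of rat spinal cord after a clip injury and in sham cord. For each gene the probe set that carried its symbol alone was used, and of several such sets the one with the highest mean over the 24 arrays. By this rule 38 of the 40 genes were measured, among 14218 genes on the array. They were 12 replication genes (Mcm2, Mcm3, Mcm4, Mcm5, Mcm6, Mcm7, Pcna, Rrm1, Fen1, Tyms, Tk1 and Gmnn) and 26 mitosis genes (Cdk1, Ccnb1, Ccnb2, Ccna2, Mki67, Top2a, Birc5, Cdkn3, Bub1, Bub1b, Aurka, Aurkb, Plk1, Cdc20, Kif11, Kif20a, Kif2c, Nusap1, Ube2c, Prc1, Racgap1, Hmmr, Ect2, Melk, Ttk and Cks2). Tpx2 and Rrm2 are not analysed here, because no probe set carried either symbol alone.

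The arrays came from female Wistar rats, with 4 rats in each of 6 groups and 1 rat to an array. Rats of the 5 injured groups had a laminectomy and a 35 g aneurysm clip closed on the thoracic cord for 1 min, which strikes and compresses the tissue, and were killed 1, 3, 7, 14 or 56 days later. The sham rats carry the same treatment text in their labels, while the study elsewhere calls them laminectomized. The day they were killed on and the age of any rat are not given in the labels or methods. Each sample was a short length of cord around the centre of the injury, thus bulk tissue of resident and incoming cells, and different rats make up each day.

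A cell that divides first copies its DNA in S phase and later separates the copies in mitosis. The Mcm proteins form the ring-shaped helicase that opens the double strand, PCNA is the clamp that holds polymerases on it, and ribonucleotide reductase, thymidylate synthase and thymidine kinase supply building blocks. Cdk1 with the B cyclins starts mitosis, and kinesins, Aurora and Polo-like kinases, the spindle checkpoint and the anaphase-promoting complex carry it through. The RNAs of replication genes rise before S phase, largely under E2F factors, and those of mitosis genes peak in G2 phase and mitosis, under complexes that read CHR elements and CCAAT boxes. In injured cord, microglia, macrophages, fibroblasts, endothelial cells, oligodendrocyte precursors and astrocytes are known to divide.

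Values are log2 expression as deposited, on which a difference of 1 is a factor of 2. Arrays within a group correlated at 0.973 to 0.996 over all probe sets. Probe sets for control transcripts that should have no target averaged 2.62 to 2.91 per array, single ones reached 3.22, and a change of a gene with a group mean at or below 3.22 has no exact size. In sham cord 3 replication genes (Mcm3, Mcm6 and Tyms) and 12 mitosis genes (Birc5, Cdkn3, Bub1, Bub1b, Plk1, Cdc20, Kif11, Prc1, Racgap1, Hmmr, Ect2 and Melk) lay at this control level. Neuron markers were high in sham cord, with a summed level of 16.46 to 16.90. The methods state that each time point was pre-processed on its own, so that processing and day cannot be told apart. Calls come from limma fitted to all 24 arrays, with p adjusted by the Benjamini-Hochberg procedure and a threshold of 0.05.

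The bases upstream of 8 of the genes are shown because they hold the letters known from each class of promoter, and they were picked for that. Each run is the 120 bases that end just before the annotated start of the gene, from RefSeq on build GRCr8. For the mitosis genes, capitals mark the CHR letters, which are TTTGAA and alternatively TTCGAA, and the CCAAT letters, which read ATTGG on the other strand. Cdk1, the kinase that starts mitosis, is at chr20:19265173-19265292 on the plus strand. Ccnb2, a cyclin partner of Cdk1, is at chr8:79981659-79981778 on the minus strand. Prc1, which bundles the microtubules of the central spindle, is at chr1:143659361-143659480 on the plus strand. Cdc20, which activates the anaphase-promoting complex, is at chr5:137255800-137255919 on the minus strand.
Cdk1: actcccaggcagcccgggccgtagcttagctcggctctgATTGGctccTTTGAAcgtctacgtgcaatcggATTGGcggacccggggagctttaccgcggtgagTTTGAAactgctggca
Ccnb2: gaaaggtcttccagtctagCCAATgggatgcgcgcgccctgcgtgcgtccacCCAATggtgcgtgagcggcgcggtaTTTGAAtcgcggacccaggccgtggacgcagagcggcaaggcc
Prc1: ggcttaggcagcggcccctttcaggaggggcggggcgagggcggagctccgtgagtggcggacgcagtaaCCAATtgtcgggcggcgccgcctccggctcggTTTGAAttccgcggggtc
Cdc20: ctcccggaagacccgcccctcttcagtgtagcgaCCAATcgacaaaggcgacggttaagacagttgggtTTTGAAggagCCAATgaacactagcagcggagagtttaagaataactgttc

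For 4 helicase subunits, capitals mark the E2F letters on either strand, which are TTCCCGC and, as further forms, TTCGCGC, likewise TTGCCGC, and lastly TTGGCGC. Mcm6 is at chr13:42404353-42404472, Mcm2 at chr4:122918095-122918214 and Mcm7 at chr12:22163179-22163298, all on the minus strand, and Mcm5 is at chr19:13488693-13488812 on the plus strand. In Mcm6, Mcm2 and Mcm7 the capitals are a pair of matches that overlap on opposite strands.
Mcm6: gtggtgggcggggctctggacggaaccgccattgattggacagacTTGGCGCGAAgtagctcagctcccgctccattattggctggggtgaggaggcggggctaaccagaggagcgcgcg
Mcm2: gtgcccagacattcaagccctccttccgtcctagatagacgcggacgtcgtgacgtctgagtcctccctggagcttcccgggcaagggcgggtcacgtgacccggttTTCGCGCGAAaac
Mcm7: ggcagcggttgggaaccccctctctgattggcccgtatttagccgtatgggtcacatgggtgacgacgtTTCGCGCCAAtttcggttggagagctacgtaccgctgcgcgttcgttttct
Mcm5: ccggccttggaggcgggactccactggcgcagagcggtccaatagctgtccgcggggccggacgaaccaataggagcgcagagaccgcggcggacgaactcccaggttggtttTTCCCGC

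Over whole windows of 300 bases, 250 before and 50 after the start, 33 of the 38 genes had an entry, and Mcm4, Ccna2, Aurkb, Ube2c and Racgap1 had none. E2F letters stood in 9 of 11 replication windows (81.8%) and 4 of 22 mitosis windows (18.2%), against 2749 of all 27457 windows. CHR letters stood in 3 of 11 replication windows (27.3%) and 15 of 22 mitosis windows (68.2%), against 19.5% of all. CCAAT letters stood in 7 of 11 replication windows (63.6%) and 17 of 22 mitosis windows (77.3%), against 37.7% of all. CHR and CCAAT letters stood together in 2 of 11 replication windows (18.2%) and 14 of 22 mitosis windows (63.6%), against 7.8% of all. Pcna and Tk1 had no E2F letters, and Ccnb1, Bub1, Aurka, Kif11, Kif20a, Kif2c and Melk no CHR letters, which says only that these letters are not in these windows.

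**Figure D1:**
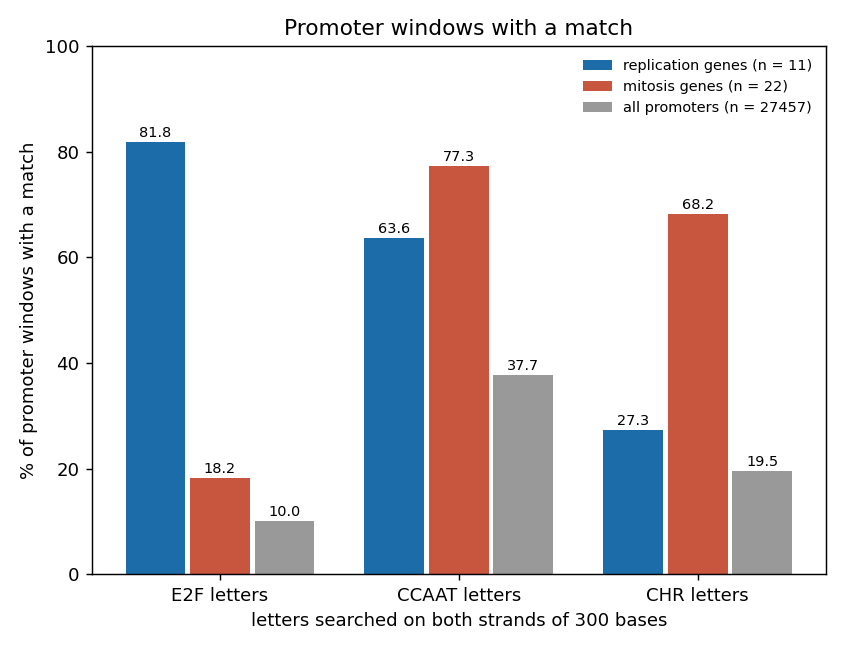
Share of promoter windows of 300 bases (%) that hold E2F, CCAAT or CHR letters on either strand, for replication genes (n = 11), mitosis genes (n = 22) and all windows (n = 27457). E2F letters stood in 81.8% of replication windows and CHR letters in 68.2% of mitosis windows.

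At 1 day after the clip every measured gene of both classes was higher than in sham cord. All 12 replication genes and all 26 mitosis genes rose, against 28.9% of all genes tested. The injured and sham arrays did not overlap for any of the 38, as for 27.6% of all genes in that direction. The median log2 change was 3.24 for replication genes (1.76 to 6.04) and 5.27 for mitosis genes (1.22 to 7.52), beside 0.01 over all genes. In bulk tissue, more dividing cells and more of these RNAs per cell cannot be told apart.

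Cks2, a small subunit that binds Cdk1, measured 11.84, 11.27, 11.04 and 11.36 on day 1, against 4.10, 4.05, 3.73 and 3.55 in sham (log2 change 7.52, SE 0.55, adjusted p 3.9e-09 in limma). Cdk1 itself measured 11.10, 10.78, 10.59 and 10.80 on day 1, against 3.67, 3.47, 4.0 and 3.51 in sham (7.16, SE 0.40, adjusted p 2.78e-10). All injured values of both genes were far above all sham values. Mki67, the antigen stained as Ki-67 to find cycling cells, averaged 11.71 ± 0.25 on day 1 and 4.98 ± 0.23 in sham (SD, n = 4 each), a log2 change of 6.73 (SE 0.44). Cdkn3, a phosphatase that acts on Cdk kinases, rose by 7.48 and Prc1 by 6.70, both with sham values at the control level.

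The cyclins rose together. Ccnb2 averaged 10.84 ± 0.24 on day 1 and 4.33 ± 0.18 in sham (SD, n = 4 each). Ccna2, the cyclin of S and G2 phase, averaged 10.12 ± 0.17 on day 1 and 4.01 ± 0.12 in sham. Ccnb1 averaged 7.89 ± 0.26 on day 1 and 3.45 ± 0.02 in sham. Genes of the spindle checkpoint rose by log2 changes of 5.63 for Bub1, 3.93 for Bub1b and 1.77 for Ttk. Top2a, the topoisomerase that untangles DNA, rose by 5.56, and the cytokinesis genes Racgap1 and Ect2 by 6.23 and 5.91. The spindle motors Kif11 and Kif20a rose by 5.38 and 4.96. The probe sets used for Cdc20 and Kif2c rose by 1.22 and 1.59. Other probe sets rose further, by 3.30 for Cdc20, 3.83 for Kif2c and 3.74 for Ttk, so that these genes have no fixed rank.

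Among the probe sets used for replication genes, that of the helicase subunit Mcm6 had the largest fitted change, with its sham mean at the control level. It measured 9.18, 9.17, 8.96 and 9.30 on day 1, against 2.90, 3.05, 2.62 and 3.88 in sham (6.04, SE 0.39, adjusted p 9.02e-10). The other helicase subunits rose by 4.67 (Mcm4), 4.38 (Mcm2), 3.39 (Mcm5), 3.27 (Mcm3) and 3.21 (Mcm7). Pcna had the smallest change and was far above the control level in sham cord already. It measured 12.78, 12.66, 12.51 and 12.66 on day 1, against 10.73, 11.02, 10.85 and 10.97 in sham (1.76, SE 0.10, adjusted p 2.81e-10). Rrm1, the large subunit of ribonucleotide reductase, rose by 2.93, Tk1 by 4.43 and Tyms by 1.86. Gmnn, which keeps copied DNA from being licensed again, rose by 2.95, and the flap nuclease gene Fen1 by 2.22.

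**Figure D2:**
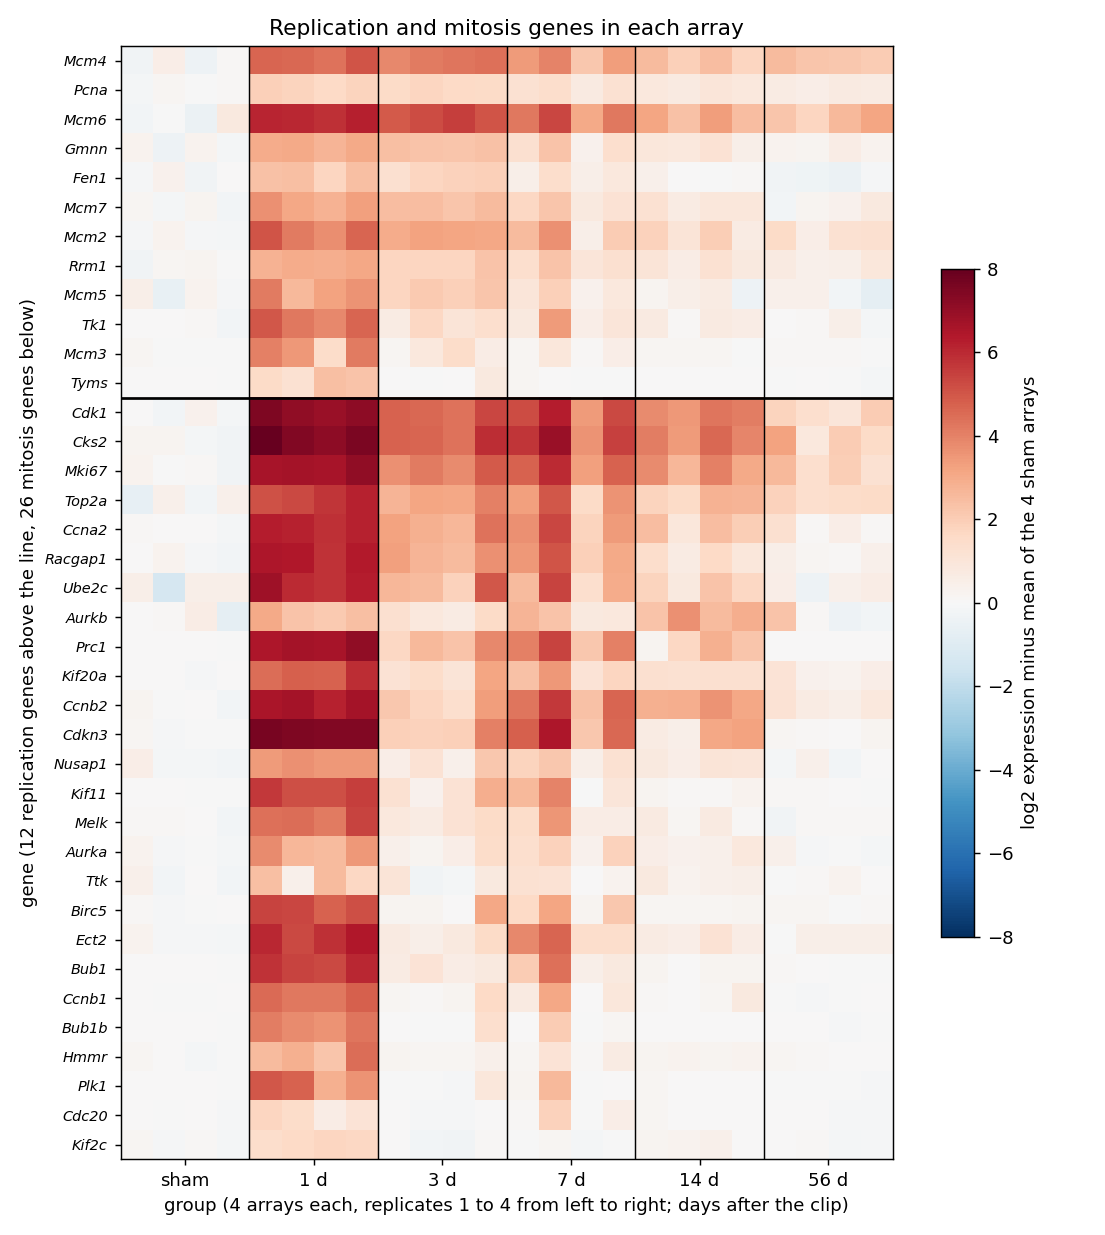
Log2 expression of each of 38 genes (rows, 12 replication genes above 26 mitosis genes) in each of 24 arrays (columns), minus the mean of the 4 sham arrays. All rows are raised on day 1, and on day 3 the lower mitosis rows are paler, with replicate 4 the highest of its group in 24 of 26 mitosis rows.

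On day 3, 10 of 12 replication genes (median change 1.92) and 12 of 26 mitosis genes (1.08) were higher than in sham, against 23.7% of all genes. All 4 values of day 3 were above all sham values in 10 of 12 replication genes and 17 of 26 mitosis genes, against 23.1% of all genes. In the direct comparison 7 of 12 replication genes and 25 of 26 mitosis genes were lower on day 3 than on day 1, against 18.3% of all genes. The median differences were -0.97 and -3.20, beside -0.05 over all genes. The 2 days did not overlap for 8 of 12 replication genes and 25 of 26 mitosis genes, against 16.3% of all genes. Without single arrays 5 to 9 replication genes were called lower. A fit without replicates 2 and 3 of day 7, the ends of the widest group, was added after the values were seen. In it 11 of 12 replication genes were called lower. These arrays enter the comparison only through the spread shared by all groups, so that the larger count adds no evidence on days 1 and 3.

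Pcna measured 12.40, 12.58, 12.47 and 12.43 on day 3, against the day 1 values above (difference -0.19, SE 0.10, adjusted p 0.136). Mcm4 measured 8.70, 8.98, 9.14 and 9.26 on day 3, against 9.51, 9.46, 9.22 and 9.86 on day 1 (-0.49, SE 0.29, adjusted p 0.17). The 2 days overlap for both genes. Mcm6 measured 8.04, 8.34, 8.63 and 8.17 on day 3, below all of its day 1 values, but the difference did not pass the test (-0.86, SE 0.39, adjusted p 0.0927). Fen1 (-0.52, adjusted p 0.0553) and Gmnn (-0.64, adjusted p 0.0692) did not pass it either. A p above the threshold does not show that these genes were at the same level on both days.

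Mcm7 (-0.78), Rrm1 (-1.08), Mcm2 (-1.26), Mcm5 (-1.40), Tyms (-1.68) and Mcm3 (-2.50) were lower on day 3 than on day 1. The call of Mcm2 (adjusted p 0.0425) ended without any 1 of 6 arrays of days 1 and 3, and that of Mcm7 (adjusted p 0.0225) without any 1 of 3. Tk1, which salvages thymidine, fell furthest among replication genes. It measured 4.35, 5.35, 4.72 and 5.02 on day 3, against 8.65, 7.91, 7.54 and 8.30 on day 1 (-3.24, SE 0.44, adjusted p 1.79e-05). Tyms and Mcm3 were at the control level on day 3.

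The largest falls were those of mitosis genes. Ect2, which activates the contractile ring, measured 3.11, 2.83, 3.14 and 3.91 on day 3, against 8.42, 7.67, 8.24 and 8.78 on day 1 (-5.03, SE 0.52, adjusted p 9.91e-07). Bub1, a checkpoint kinase of the kinetochore, measured 3.51, 3.98, 3.49 and 3.66 on day 3, against 8.63, 8.29, 8.14 and 8.91 on day 1 (-4.83, SE 0.52, adjusted p 1.42e-06). The days lay well apart in both genes. Cdkn3 changed by -5.06, Ccnb2 by -4.37 and Birc5, a part of the chromosomal passenger complex with the Aurora B kinase, by -4.28. Aurkb, the gene of that kinase, was the mitosis gene that did not pass (-1.38, SE 0.52, adjusted p 0.0509), although its 4 day 3 values were below those of day 1. Bub1b, Plk1, Cdc20, Kif11, Hmmr and Melk lay at the control level on day 3.

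**Figure D3:**
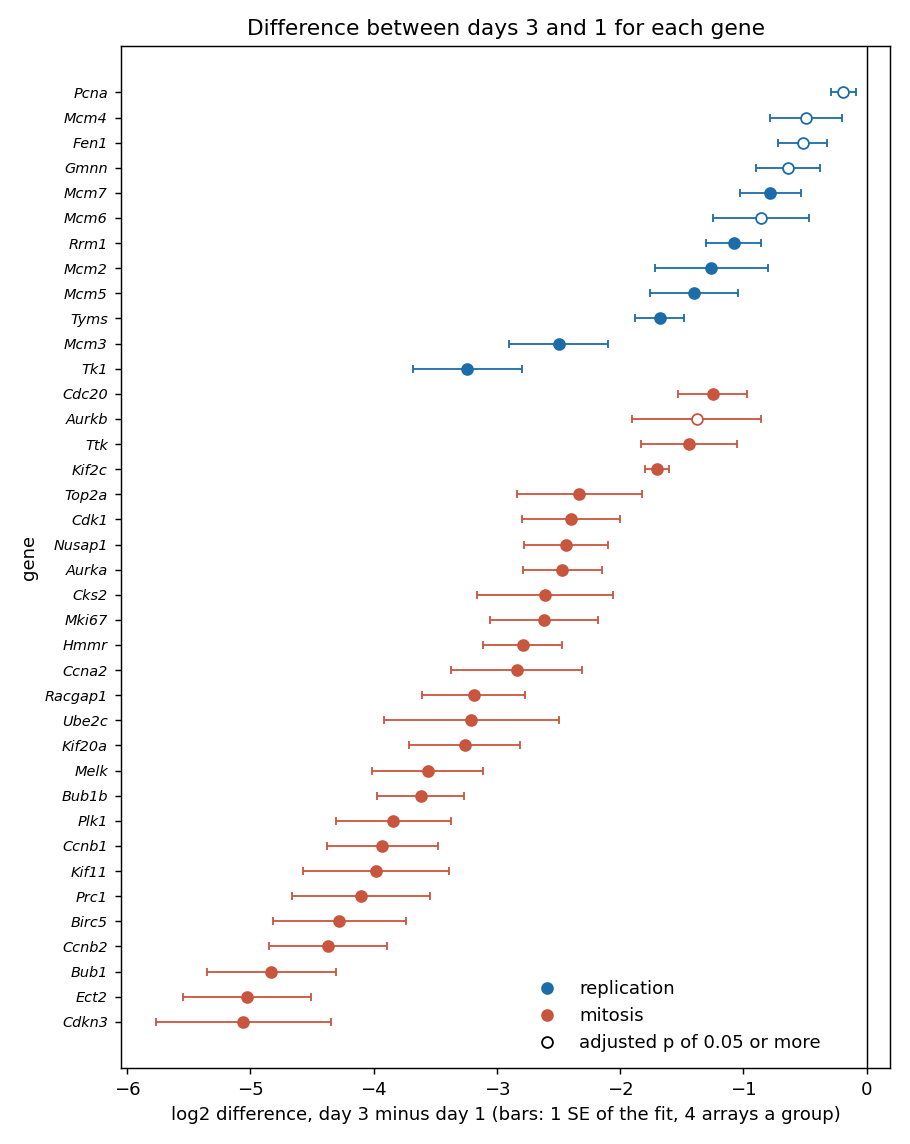
Difference in log2 expression, day 3 minus day 1, for each of 12 replication genes and 26 mitosis genes, with 1 SE of the fit as bars (4 arrays a group) and open points where the adjusted p was 0.05 or more. Mitosis genes lie between -1.25 and -5.06 and replication genes between -0.19 and -3.24.

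As a share of each gene's own day 1 rise on the log2 scale, a median of 73.5% was present on day 3 for replication genes (9.9 to 89.4%) and 28.2% for mitosis genes (-7.1 to 66.5%). At least 50% was present for 9 of 12 replication genes and 5 of 26 mitosis genes. The highest shares were those of Mcm4 (89.4%), Pcna (89.4%), Mcm6 (85.8%), Gmnn (78.2%) and Fen1 (76.3%). The 5 mitosis genes were Cdk1 (66.5%), Cks2 (65.2%), Mki67 (61.1%), Top2a (58.1%) and Ccna2 (53.5%). Another Top2a probe set was 2.19 above sham on day 1 and 0.62 on day 3, a smaller share. Shares of genes at the control level in sham or on day 3, such as Mcm6, have no exact size. Without these genes, a choice made after the values were seen, the median share was 75.7% for 9 replication genes (26.9 to 89.4%) and 39.3% for 14 mitosis genes (-7.1 to 66.5%). The median change from sham was then 1.98 and 1.92, and that from day 1 -0.78 and -2.54. Of the 9 replication genes Tk1 alone was below 50%, with 26.9%.

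The classes also lay apart among genes with a day 1 mean of 8 to 10, a comparison added after the values were seen. Of these, 6 replication genes kept a median share of 74.8% and 11 mitosis genes 32.3%. On day 3, 3 of the 6 and 10 of the 11 were lower than on day 1, with medians of -1.06 and -3.26. Of the 8 measured Mcm, Pcna and Rrm genes alone, 5 were lower, with a median of -0.97. No test of the difference between the classes was made.

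The 4 rats of day 3 differed more in mitosis genes than in replication genes. The median level of the 26 mitosis genes was 4.62, 4.62, 4.45 and 6.19, and that of the 12 replication genes 7.79, 8.06, 8.13 and 7.92. Replicate 4 was the highest of the group in 24 of 26 mitosis genes and 6 of 12 replication genes. Birc5 measured 3.23, 3.19, 3.05 and 6.07, and Ube2c, a ubiquitin-conjugating enzyme of the anaphase-promoting complex, 6.75, 6.61, 5.95 and 9.08. In replicate 4 the summed level of macrophage and microglia markers (14.26) and of fibroblast and pericyte markers (12.61) lay within the range of the other 3 rats. That of neutrophil markers (13.22) was the lowest of the 4, and those of red cell markers (15.68) and ependymal markers (6.45) the highest. The remaining marker lists lay within the range. The part of cell types in this array was not tested. Without this array 26 of 26 mitosis genes were lower on day 3 than on day 1.

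**Figure D4:**
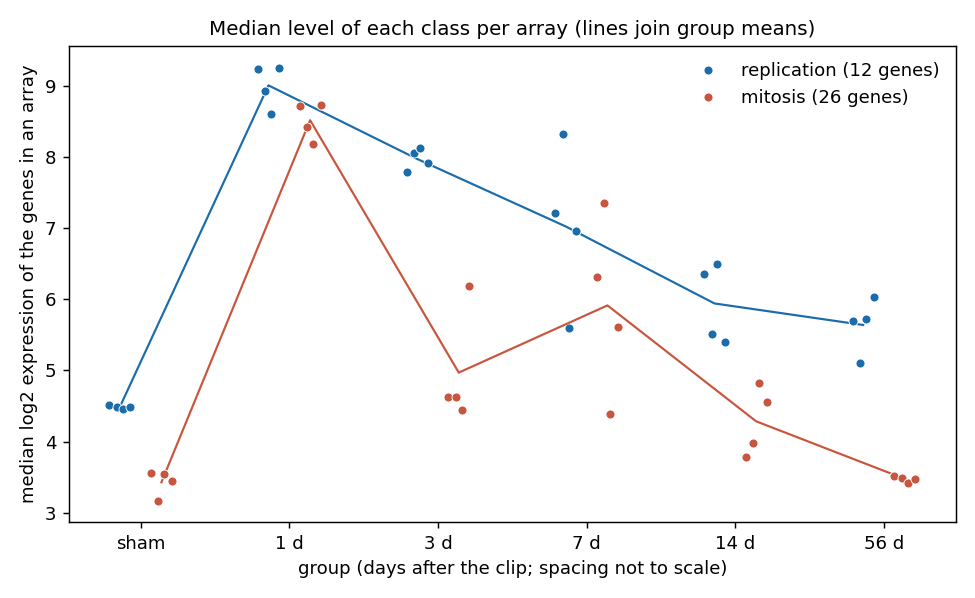
Median log2 expression of the 12 replication genes and of the 26 mitosis genes in each array (points) by group (sham and days after the clip). Mitosis medians are 4.45 to 6.19 on day 3, against 8.19 to 8.74 on day 1, and replication medians 7.79 to 8.13 on day 3, against 8.61 to 9.26 on day 1. Levels cannot be set against each other between the classes, since the probe sets differ.

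On day 7, 10 of 12 replication genes (median change 1.37) and 20 of 26 mitosis genes (1.89) were higher than in sham, against 23.5% of all genes. Set against day 3, 6 replication genes were lower on day 7 and none higher, against 17.1% of all genes lower. They were Mcm4, Mcm5, Mcm7, Pcna, Fen1 and Gmnn (-0.45 to -1.0). Of the 6 calls, 1 was left in a fit of these 2 groups alone, and the days overlap in all but 1 of 12 replication genes. Among mitosis genes 3 of 26 were higher on day 7 than on day 3 and none lower, with a median difference of 0.50. Of all genes 12.8% were higher, so that this count did not exceed the share over all genes.

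The 3 were Ccnb2, Cdkn3 and Ect2. Ccnb2 measured 8.59, 10.01, 6.70 and 8.98 on day 7, against 6.51, 6.03, 5.66 and 7.65 on day 3 (2.10, SE 0.48, adjusted p 0.00253). Cdkn3 measured 7.13, 8.76, 4.50 and 6.91 on day 7, against 4.25, 4.17, 4.20 and 6.32 on day 3 (2.09, SE 0.71, adjusted p 0.0346). Ect2 measured 6.21, 7.04, 3.76 and 3.75 on day 7, against the day 3 values above (1.94, SE 0.52, adjusted p 0.00849). The days overlap in all 3 genes, and in a fit of days 7 and 3 alone none passed. Without replicate 3 of day 7, 9 mitosis genes were higher than on day 3, and without replicate 4 of day 3 the count was 6. The call of Cdkn3 ended without any 1 of 6 arrays of these days.

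The rats of day 7 spread widely, with a median SD of 0.63 for replication genes and 1.28 for mitosis genes, against 0.22 and 0.16 in sham. Replicate 2 was the highest of the 4 in 11 of 12 replication genes and 23 of 26 mitosis genes, and replicate 3 the lowest in 11 of 12 and 25 of 26. Cdk1 measured 8.87, 9.97, 7.08 and 8.92, Mcm2 7.11, 8.18, 5.03 and 6.61 and Plk1, the Polo-like kinase, 2.50, 4.87, 2.26 and 2.29. In replicate 2 the summed marker level was 16.46 for macrophages and microglia, 16.41 for fibroblasts and pericytes and 13.04 for neurons. In replicate 3 these levels were 15.33, 14.43 and 15.62. The part of these cell types in the spread was not tested.

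Compared with day 1, day 7 was lower in 12 of 12 replication genes (median -1.78) and 23 of 26 mitosis genes (-2.68), against 15.0% of all genes. Aurkb, Cdc20 and Ttk did not pass with the probe sets used. Another Cdc20 probe set averaged 5.20 on day 1 and 2.40 on day 7, and the rest of its sets lay at the control level. The other Ttk probe set averaged 6.39 on day 1 and 4.64 on day 7. In a fit of these 2 groups alone 1 replication gene and 2 mitosis genes passed, while the values did not overlap in 12 of 12 and 23 of 26, against 24.3% of all genes. Of the day 1 rise, medians of 45.2% for replication genes and 45.4% for mitosis genes were present on day 7.

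**Figure D5:**
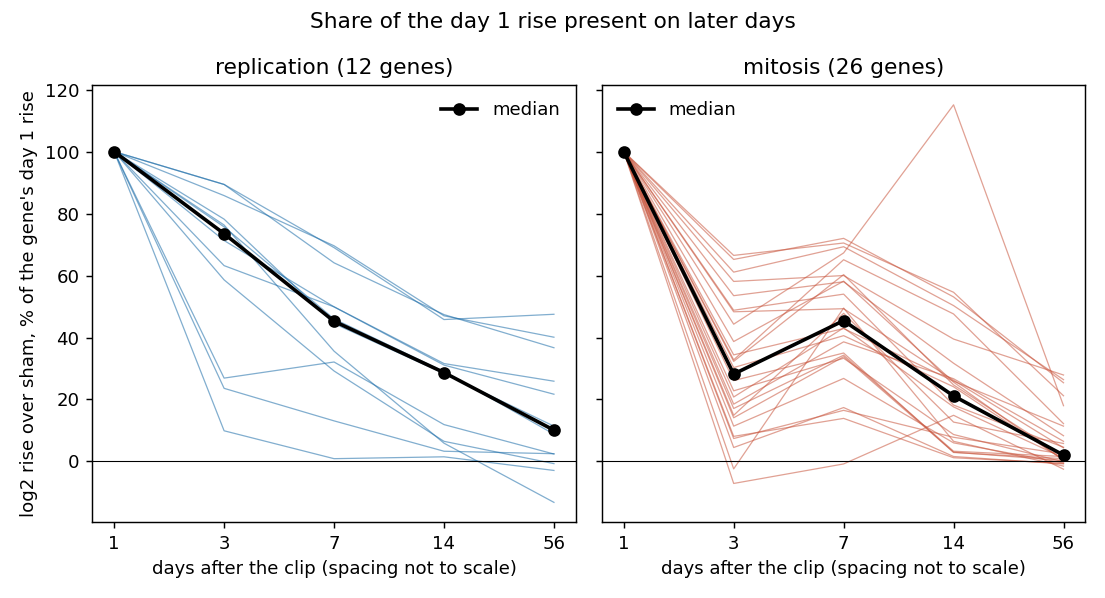
Log2 rise over sham as % of the gene's day 1 rise on days 1, 3, 7, 14 and 56, with 1 thin line for each of 12 replication genes (left) and 26 mitosis genes (right) and the median in black. The replication median is 73.5% on day 3 and 45.2% on day 7, and the mitosis median 28.2% and 45.4%.

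On day 14, 7 of 12 replication genes and 9 of 26 mitosis genes were higher than in sham, against 15.8% of all genes, with medians of 0.84 and 0.80. All 4 values were above all sham values in 7 and 22 genes, against 19.7% of all genes, and in a fit of these 2 groups alone 16 mitosis genes passed. On day 14, however, 9 of the 26 mitosis genes lay at the control level, where a gap between groups has no exact size and need not be a rise. Cdc20, for example, measured 2.76 to 2.85 on day 14 and 2.64 to 2.75 in sham. Of the 14 mitosis genes above that level in sham and on day 3, 12 had all day 14 values above sham. The 7 called genes were Mcm2, Mcm4, Mcm6, Mcm7, Pcna, Rrm1 and Gmnn, and the 9 were Cdk1, Ccnb2, Ccna2, Mki67, Top2a, Aurkb, Kif20a, Prc1 and Cks2. Against day 7, 4 replication and 10 mitosis genes were lower, against 6.18% of all genes. These counts were 10 and 19 without replicate 3 of day 7, and 1 and 5 without replicate 2 of day 7. Without replicate 2 of day 14 they were 2 and 5, and there were 5 mitosis genes without replicate 1 of day 7 and 6 without replicate 4 of day 14.

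Aurkb had its highest mean on day 14. It measured 8.48, 9.86, 8.74 and 9.11 on day 14, against 6.21, 6.31, 6.79 and 5.52 in sham (2.84, SE 0.52, adjusted p 0.000328). Its day 14 mean of 9.05 ± 0.60 stood beside a day 1 mean of 8.68 ± 0.40 (SD, n = 4 each), which makes 115.1% of its day 1 rise, and Cdk1 came next with 54.6%. On day 56 it measured 8.49, 6.29, 5.81 and 6.01, with replicate 1 alone above the sham values.

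On day 56, 4 of 12 replication genes and 4 of 26 mitosis genes were higher than in sham, against 16.1% of all genes. The mitosis count was thus near the share of all genes. The called genes were Mcm4 (2.22), Mcm6 (2.42), Pcna (0.65) and Rrm1 (0.63), and Cdk1 (1.52), Mki67 (1.78), Top2a (1.55) and Cks2 (1.91). Another Top2a probe set averaged 4.98 on day 56 and 5.36 in sham. Mcm4 measured 7.37, 7.04, 6.98 and 6.87 on day 56, against 4.56, 5.39, 4.45 and 4.97 in sham (SE 0.29, adjusted p 1.17e-05). Pcna measured 11.54, 11.45, 11.58 and 11.57 on day 56, above every sham array (adjusted p 6.56e-05). Mki67 measured 7.57, 6.30, 6.97 and 6.18 on day 56, against 5.23, 4.92, 5.08 and 4.68 in sham (adjusted p 0.00406). None of these 3 genes overlapped with sham. Without replicate 1 of day 56 only Cdk1 and Mki67 of the mitosis genes passed. The median change was 0.31 for replication and 0.10 for mitosis genes, and 12 mitosis genes were at the control level on day 56. Against day 14, Cdk1 (-2.39, adjusted p 0.00987) and Ccnb2 (-2.31, adjusted p 0.0462) were lower and no replication gene was, against 0.148% of all genes. In 19 of 24 fits without a single array only 1 of these genes passed. On no day was any of the 38 genes called lower than in sham. Of all genes 20.4% were lower on day 1, and that share is not given here for the later days.

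Other genes of these processes were counted too, beside 28.9% of all genes higher and 20.4% lower on day 1 than in sham, and 17.1% higher and 18.3% lower on day 3 than on day 1. Of 46 other replication genes 37 rose on day 1 and none fell, and 26 were lower and 1 higher on day 3 than on day 1 (median -0.55). The 1 was Orc2, a part of the origin recognition complex, named after its values were seen (0.65, adjusted p 0.0254). Of 65 other mitosis genes 52 rose and 3 fell on day 1, and 48 were lower and 1 higher on day 3 than on day 1 (-1.58). That 1 was Zwint, a kinetochore gene, also named after its values were seen, with a mean of 14.63 in sham, 12.62 on day 1 and 14.37 on day 3.

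Cdt1, which loads the Mcm helicase onto DNA, was 4.71 above sham on day 1 and 3.98 on day 3. Asf1b, a histone chaperone, rose by 3.97 on day 1 and differed by -3.02 on day 3 relative to day 1. For the kinetochore genes Spc24 and Spc25 these values were 5.42 and -4.53, and 5.41 and -3.17. Of 22 genes that control entry into S phase 15 rose on day 1, and 9 were lower and 2 higher on day 3 than on day 1. Those 2 were Myc, a growth transcription factor (1.30, adjusted p 3.29e-05), and Ccnd2, a D cyclin named after its values were seen (0.90, adjusted p 0.00949). Rbl1, a relative of the retinoblastoma protein, was 5.49 above sham on day 1 and 3.87 on day 56. Of 7 genes of Cdk inhibitors 3 rose and 1 fell on day 1, beside the 28.9% and 20.4% of all genes, with Cdkn2c at 1.71. Of 15 genes of the S-phase checkpoint and repair 8 rose on day 1, with Blm, a DNA helicase, at 3.15, and 10 were lower on day 3 than on day 1.

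Markers of cell types moved with the days too, given here as the log2 of their summed level per array. Of 16 macrophage and microglia markers 12 rose and 1 fell on day 1, against 28.9% and 20.4% of all genes. Of these markers 12 were lower on day 3 than on day 1, against 18.3% of all genes. Their level was 12.44 to 13.73 in sham, 15.82 to 16.13 on day 1, 14.10 to 14.62 on day 3 and 15.33 to 16.46 on day 7, with Ccr2 at the control level throughout. Of 11 fibroblast and pericyte markers 8 rose and none fell on day 1, and 10 were lower on day 3 than on day 1, beside the same shares. Their level was 11.79 to 12.64 in sham, 13.79 to 15.47 on day 1, 12.49 to 13.18 on day 3 and 14.36 to 16.41 on day 7. Yet 5 of the 11 were lower and 3 higher on day 3 than in sham, with a median change of -1.84. Of the 16 macrophage and microglia markers 7 were higher and 4 lower on day 3 than in sham (0.30). Over all genes the median was -0.04 and 23.7% were higher, and the share lower is not given here. In both lists the summed levels of day 3 lay below all those of days 1 and 7. The summed level of the mitosis genes was 13.93 to 14.39 on day 1, 10.83 to 12.25 on day 3 and 10.37 to 13.31 on day 7, so that days 3 and 7 overlap there.

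Markers of 3 other cell types that can divide were counted as well. Of 9 endothelial markers 4 rose and 1 fell on day 1, and 1 was higher and 3 lower on day 3 than on day 1 (median 0.37), with a level of 11.09 to 11.31 in sham, 11.35 to 12.28 on day 1 and 11.06 to 11.80 on day 3. Of 9 astrocyte markers 1 rose and 7 fell on day 1, and 2 were higher and 1 lower on day 3 than on day 1 (0.41), with a level of 15.78 to 16.17 in sham, 15.57 to 16.01 on day 1 and 15.56 to 15.75 on day 3. Of 9 markers of oligodendrocyte precursors 2 rose and 1 fell on day 1, and 4 were lower on day 3 than on day 1 (-0.74), with a level of 13.23 to 13.66 in sham, 13.52 to 13.89 on day 1 and 12.94 to 13.53 on day 3. For these counts, too, the shares of all genes are those given for the other replication genes.

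Of 12 neuron markers 12 were lower on day 1 than in sham, against 20.4% of all genes. Of these markers 10 were higher on day 3 than on day 1, against 17.1% of all genes. Their level was 16.46 to 16.90 in sham, 12.05 to 13.67 on day 1, 15.24 to 15.97 on day 3 and 13.04 to 15.62 on day 7. The 8 measured neutrophil markers had a level of 6.31 to 6.64 in sham, 10.99 to 12.23 on day 1, 13.22 to 13.72 on day 3 and 6.97 to 9.48 on day 7, with 4 of the 8 (Cxcr2, Mmp8, Mmp9 and Camp) at the control level on days 1 and 3. The part of any of these cell types in the replication and mitosis results was not tested.

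There were 15 other probe sets for 11 of the genes. Of these, 10 were higher on day 1 than in sham, 10 were lower on day 3 than on day 1, and 5 changed by less than 0.2 on day 1. For Cdc20, with 5 probe sets, 2 rose as given above and the remaining 3 had means of at most 2.61 in every group.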

How the data were processed

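RNA from the 24 cords was hybridised to Affymetrix rat genome arrays. The authors normalised the arrays with GCRMA, using affy 1.12.2, each time point separately, and the deposited values are log2 expression for 31099 probe sets. Probe sets were named from the platform annotation, in which 20832 had 1 gene symbol, 436 had several and 9831 had none. No further normalisation was applied. A linear model with 6 groups was fitted to all arrays with limma 3.58.1 in R 4.3.3 (empirical Bayes, 18 residual degrees of freedom), 10 contrasts were drawn, and p was adjusted by the Benjamini-Hochberg procedure over the 20832 probe sets. The procedure was tested on simulated data. Nothing beyond 1 rat per array is said of replicates, and 4 arrays per group limit the precision.

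The replication and mitosis genes and all other lists were chosen with earlier results of these data known. All 40 genes could be named, as could, from each other list, up to 4 called genes with the largest change on any day. Lists were described by counts and medians, with no test of a list. Alternatives were a fit of the compared groups alone, eBayes with trend and robust, quantile normalisation, median centring, a filter on group means under 5, averaging the probe sets of a gene, adjustment over all probe sets, unadjusted p under 0.001 (the methods name this limit beside a false-discovery correction, without saying to which p it applies), a change of at least 1, the replicate number as a block and each array left out. Promoter windows and sequences came from RefSeq (GRCr8).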

Additional observations from a re-analysis of the deposited data

Results flagged for a closer look

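Of 228 sets of 4 arrays, 1 for each gene and group, 27 (11.8%) held a value farther from the others than Dixon's limit for 4 values allows, where chance gives about 1 in 20. Of the 27, 8 were the highest value of day 3 in replicate 4. These were Rrm1 at 9.80 against 9.21 to 9.24 in the other 3, Tyms at 3.27 against 2.45 to 2.51 in the other 3, Ccnb1 at 5.07 against 3.52 to 3.66 in the other 3, Birc5 at 6.07 against 3.05 to 3.23 in the other 3, Cdkn3 at 6.32 against 4.17 to 4.25 in the other 3, Bub1b at 3.77 against 2.37 to 2.44 in the other 3, Plk1 at 3.18 against 2.17 to 2.27 in the other 3 and Hmmr at 3.06 against 2.77 to 2.82 in the other 3 arrays. Another 3 were the highest value of day 7 in replicate 2, namely Tk1 at 7.09 against 4.17 to 4.66 in the other 3, Bub1b at 4.47 against 2.40 to 2.58 in the other 3 and Plk1 at 4.87 against 2.26 to 2.50 in the other 3 arrays.

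Other such values were Fen1 on day 1 (4.96 in replicate 3, 5.59 to 5.69 in the other 3), Ccnb1 on day 14 (4.24 in replicate 4, 3.51 to 3.59 in the other 3), Nusap1 in sham (5.96 in replicate 1, 5.25 to 5.27 in the other 3), Ube2c on day 56 (3.70 in replicate 2, 4.52 to 4.68 in the other 3), Ube2c in sham (2.76 in replicate 2, 4.54 to 4.56 in the other 3) and Ect2 on day 56 (2.34 in replicate 1, 2.81 to 2.85 in the other 3). In the remaining 10 sets outside the arrays named above the 4 values spanned less than 0.5, namely Mcm2 in sham (4.86 in replicate 2, 4.41 to 4.47 in the other 3), Mcm3 on day 14 (1.48 in replicate 4, 1.64 to 1.66 in the other 3), Mcm3 on day 56 (1.49 in replicate 4, 1.60 to 1.62 in the other 3), Mcm3 in sham (1.63 in replicate 1, 1.44 to 1.46 in the other 3), Mcm7 on day 3 (9.49 in replicate 3, 9.75 to 9.77 in the other 3), Bub1 on day 14 (2.92 in replicate 2, 3.06 to 3.08 in the other 3), Plk1 on day 14 (2.46 in replicate 1, 2.30 to 2.31 in the other 3), Prc1 on day 56 (2.46 in replicate 1, 2.49 to 2.49 in the other 3), Ect2 in sham (2.66 in replicate 1, 2.23 to 2.29 in the other 3) and Melk on day 56 (1.82 in replicate 1, 2.21 to 2.24 in the other 3). The part of the arrays' cell make-up in these values was not tested.

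In 3 mitosis genes 2 or 3 steps between neighbouring days passed the test in opposite directions. The share of all genes that did so was not counted, so that this is not shown to be particular to these genes. After being lower on day 3 than on day 1, Ccnb2 was 2.10 higher on day 7 than on day 3 (adjusted p 0.00253 in limma), Cdkn3 2.09 higher (adjusted p 0.0346) and Ect2 1.94 higher (adjusted p 0.00849). Day 14 then differed from day 7 by -2.66 in Cdkn3 (adjusted p 0.0124) and by -2.07 in Ect2 (adjusted p 0.0116). In a fit of days 7 and 3 alone none of the 3 rises passed.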

How the results depend on the processing

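No called result on a single gene reversed under any alternative, and no uncalled one became a call in the opposite direction. Over the genes, contrasts and alternatives 13189 results kept their side of the threshold, 156 crossed to a call and 305 lost one. The direction of results without a call in either fit was not compared. All 12 replication and all 26 mitosis genes stayed higher on day 1 than in sham without any single array. Where counts changed by over 1.5 times, the cause was not tested.

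Replication genes higher than in sham on day 14 (7) numbered 4 at unadjusted p under 0.001 and 3 with a change of at least 1, and on day 56 (4) 2 with a change of at least 1. Those lower on day 3 than on day 1 (7) numbered 11 without replicates 2 and 3 of day 7. Those lower on day 7 than on day 3 (6) numbered 1 with the 2 groups alone, 2 at unadjusted p under 0.001 and 0 with a change of at least 1. The count lower on day 14 than on day 7 (4) was 0 with the 2 groups alone, with quantile normalisation, with the filter and at unadjusted p under 0.001, and 2 with a change of at least 1. For day 7 below day 1 the count (12) was 1 with the 2 groups alone. The median change of replication genes on day 3 against sham (1.92) was 2.71 for genes with a day 1 mean of 8 to 10. For the 14 mitosis genes above the control level in sham and on day 3, the median change on day 3 was 1.92 against sham (1.08 over all 26) and -2.54 against day 1 (-3.20). This subset leaves out the genes with a mean at or below 3.22 in sham or on day 3. Genes just above that limit stay in it, such as Ccnb1, with 3.43 to 3.48 in sham.

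Mitosis genes higher than in sham on day 14 (9) numbered 16 with the 2 groups alone, and on day 56 (4) 1 at unadjusted p under 0.001. Those higher on day 7 than on day 3 (3) numbered 0 with the 2 groups alone and 1 at unadjusted p under 0.001. The 10 that were lower on day 14 than on day 7 numbered 1 with the 2 groups alone, 2 with quantile normalisation, 5 with centring, 1 with the filter and 3 at unadjusted p under 0.001. For day 7 below day 1 the count (23) was 2 with the 2 groups alone. Those lower on day 56 than on day 14 (2) numbered 1 with the 2 groups alone, 1 with adjustment over all probe sets and 4 without replicates 2 and 3 of day 7.

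With single arrays left out, 5 to 9 replication genes and 25 to 26 mitosis genes were lower on day 3 than on day 1. From 4 to 9 replication genes were lower and 2 to 9 mitosis genes higher on day 7 than on day 3, and 1 to 10 and 5 to 19 were lower on day 14 than on day 7. Mitosis genes lower on day 56 than on day 14 numbered 1 to 2. On day 56, 3 to 5 replication genes and 2 to 4 mitosis genes were higher than in sham.

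With the replicate number as a block, 1 mitosis gene was lower on day 56 than on day 14, and no other of these counts moved by over 1.5 times. The number did not pair the arrays: deviations of same-numbered arrays correlated at -0.0316 on average (-0.657 to 0.452 over 60 pairs), and 3 of 24 arrays correlated best with their own number. Genes at the control level have no exact change.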
